A study of Bos taurus with 6 samples.

Results

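The RNA of 9 genes of the Notch pathway was followed in testes of immature and mature cattle. The members were taken from the deposited table of genes by their symbols and comprise the receptors NOTCH1, NOTCH2 and NOTCH3, the ligands JAG1, JAG2 and DLL4, and the target genes HES1, HEY1 and HEYL. Each symbol had a single entry, so 9 of the 47249 genes in the table were members. The study (Bos taurus, Wandong breed) sequenced total RNA, depleted of ribosomal RNA, from testis slices of 3 immature calves aged 3 months and 3 andrologically mature bulls aged 3 years, all untreated, with 1 library per animal. The values are FPKM, fragment counts scaled to the length of the transcript and to the number of mapped fragments of the library, so levels can be compared between genes. Values are given in the order calf 1 to calf 3 and bull 1 to bull 3.

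Notch receptors sit in the cell membrane and are bound by ligands of the Jagged and Delta-like families on a neighbouring cell. Binding allows ADAM proteases and then the gamma-secretase complex to cut the receptor, and the released intracellular part enters the nucleus, joins the DNA-binding protein RBPJ and a Mastermind-like coactivator, and switches on repressors of the HES and HEY families. In the testis the pathway is known for signals between Sertoli cells and germ cells and for its part in blood vessels and in the balance of Leydig cell progenitors. Its activity depends on cleaved receptor protein, which RNA levels do not measure.

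The libraries were checked against markers of the cells that a testis holds before the members were read. The library labelled calf 3 went against its label. Its summed FPKM over 7 Leydig cell genes was 0.502, against 1143 to 2755 in the other libraries, and the Sertoli cell genes FSHR, WT1 and GATA4 were listed at 0. The 8 genes each of the oligodendrocyte, astrocyte and neuron lists were all highest in calf 3, where they summed to 13641, 3017 and 869.7 FPKM, against at most 103.7, 169.8 and 18.1 in any other library. The calls on the member genes are therefore given with and without calf 3. The sum of FPKM over all genes ranged from 587066 in calf 3 to 1098720 in calf 2, and with no read counts the depth behind each FPKM is unknown.

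Bulls were compared with calves with limma on log2(FPKM + 1) over the 18115 genes that reached an FPKM of 1 in at least 3 of the 6 libraries. A call required an adjusted p (Benjamini-Hochberg, over all genes tested) below 0.05 and a difference between bulls and calves of 1 or more on the log2 scale. Because 1 was added to every FPKM, differences of weakly expressed genes are understated, and positive values mean higher in bulls. Of the 9 members, 8 entered the test. DLL4 reached an FPKM of 1 in 2 libraries and was left out, and NOTCH3 passed through the 3 calves alone, so that it had to differ between the groups to be tested at all. Among the 8, 5 were called lower in bulls and 0 higher, where 9.61% of all genes tested were called lower and 35.7% higher. Without calf 3, 5 of the 8 were again called lower, NOTCH2 in place of NOTCH1, against a background of 13.6%. The median log2 fold change was −1.37 over the 8 members and 0.43 over all genes tested. The balance of all calls depended on how libraries were scaled: 78.8% of called genes were higher in bulls, and 45.8% after quantile normalization, where the median of all genes was −0.26 and 25.1% of genes were called lower and 21.1% higher. Of the members, 5 were called lower and 0 higher under quantile normalization too. In 5 of the 8 every bull lay below every calf and in 0 every bull lay above, where this held for 21.3% and 46.1% of all genes tested. In bulk tissue a lower FPKM may come from fewer cells of a type, less RNA per cell or more RNA of other cells. These cannot be told apart here.

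**Figure D1:**
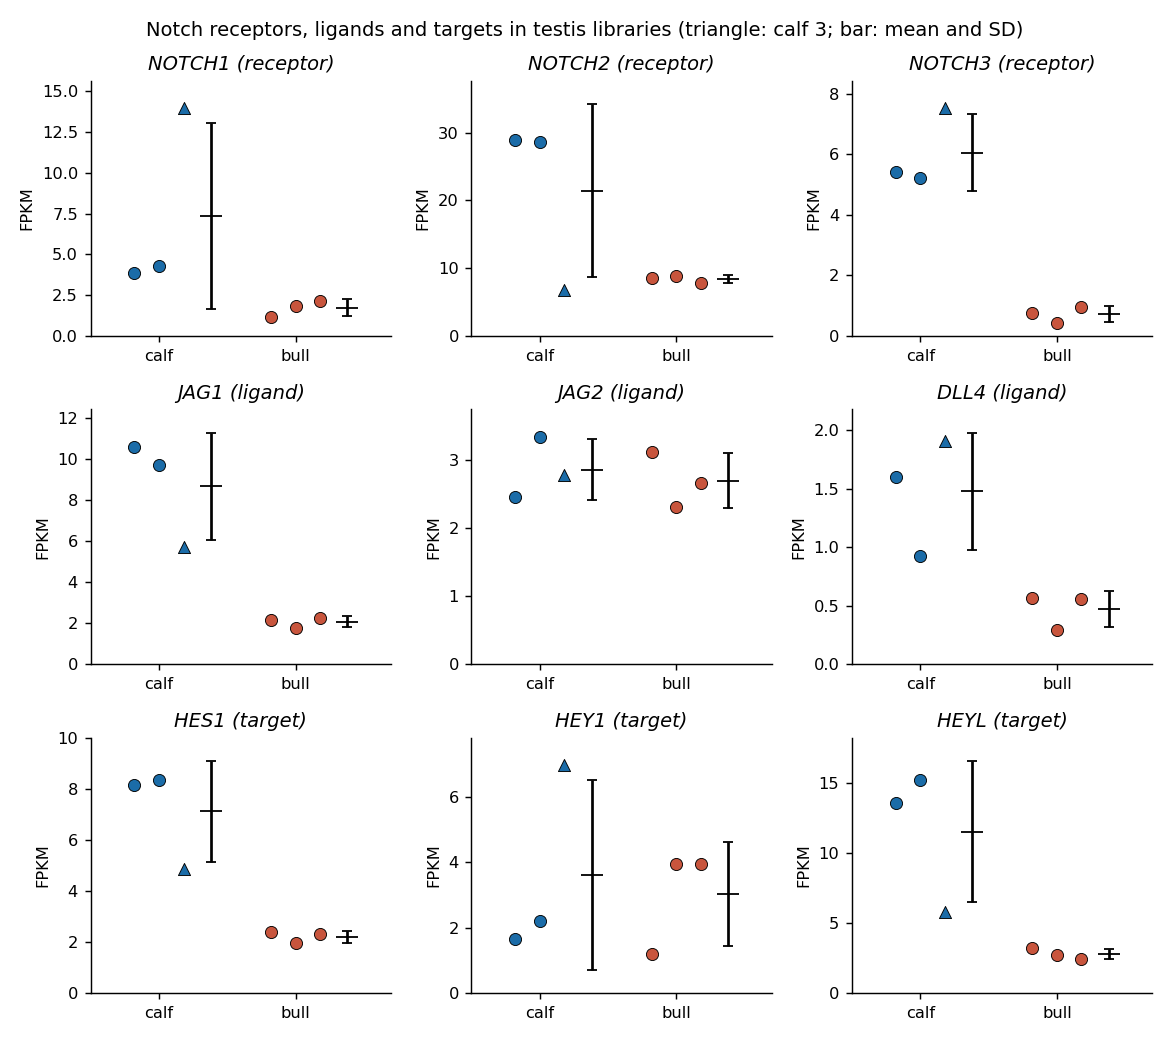
FPKM (y axis, from 0) of each member in the 3 calf and the 3 bull libraries. Points are single animals, the triangle is the library labelled calf 3, and the bars are the mean and SD (n = 3). Bulls lie below all calves for NOTCH1, NOTCH3, JAG1, DLL4, HES1 and HEYL, whereas the groups overlap for NOTCH2, JAG2 and HEY1.

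NOTCH2 (ENSBTAG00000007909, chromosome 3, 23163504 to 23368572) was the most abundant receptor in calf 1, calf 2 and the bulls. It reached 28.9, 28.7 and 6.72 FPKM in the calves and 8.59, 8.85 and 7.82 in the bulls. Calf 3 lay below every bull, so the groups overlapped only through that library. NOTCH2 was not called, with an estimate of −1.01 on the log2 scale (95% interval −2.36 to 0.33, adjusted p = 0.166, limma). Once calf 3 was left out it passed the test, lower in bulls (−1.66, 95% interval −1.93 to −1.39, adjusted p = 3.81e-05), and the mean of calf 1 and calf 2 was 3.42 times that of the bulls.

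NOTCH3 (ENSBTAG00000043971, chromosome 7, 7910635 to 7950476) encodes a receptor best known from the smooth muscle and pericytes of blood vessels. The calves were at 5.43, 5.20 and 7.52 FPKM and the bulls at 0.771, 0.437 and 0.956. All calves stood well above all bulls, and the group means differed 8.39-fold (6.05 ± 1.28 against 0.721 ± 0.263, SD, n = 3). The fall of 2.03 on the log2 scale (standard error 0.21, adjusted p = 0.000408, limma) was the largest among the members tested, and leaving out calf 3 gave −1.89 (adjusted p = 0.000152). It stayed called under every alternative that could test it, the log2 fold changes ranging from −2.94 to −1.89. Most of these kept the filter that NOTCH3 passed through the calves alone. With no filter beyond an FPKM above 0 in 1 library it was at −2.03 (adjusted p = 0.00140, limma), where 3.54% of genes were called lower. An FPKM of at least 1 in all 6 libraries left it out.

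NOTCH1 (ENSBTAG00000022799, chromosome 11, 103935364 to 103980160), a receptor of wide expression, was at 3.87, 4.27 and 13.96 FPKM in the calves and at 1.19, 1.86 and 2.17 in the bulls. The groups did not overlap, but calf 3 was 3.43 times the mean of the other two calves. With −1.42 ± 0.47 (SE) on the log2 scale (adjusted p = 0.0428), NOTCH1 passed the threshold. Without calf 3 it was at −0.90 (adjusted p = 0.00604), under the size required for a call, and the call was also lost without calf 2 (−1.66, adjusted p = 0.0504) and without bull 1, bull 2 or bull 3 (−1.27 to −1.54, adjusted p 0.0916 to 0.137).

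Among the ligands, JAG1 was called lower in bulls and JAG2 was not called. JAG1 (ENSBTAG00000012817, chromosome 13, 3939809 to 3984202), the Jagged ligand known from blood vessels and from Sertoli cells, was at 10.6, 9.74 and 5.72 FPKM in the calves and at 2.19, 1.78 and 2.27 in the bulls. Every calf lay above every bull, calf 3 being the lowest calf, and the difference was −1.62 ± 0.26 (SE) on the log2 scale (adjusted p = 0.00251), or −1.86 without calf 3 (adjusted p = 7.98e-05). An assembled locus without a name (XLOC_045753, chromosome 13, 3940482 to 3984412) spans almost the same stretch, at 0.191 to 0.285 FPKM in bulls and 0.579 to 0.821 in calves. The kit marks the strand, but whether the strand was used in the counting is not given in the sources used here, so fragments of JAG1 and of this locus may not be fully separated.

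JAG2 (ENSBTAG00000007319, chromosome 21, 69505932 to 69519541) had similar FPKM in both groups. Calves and bulls held 2.45, 3.33 and 2.78 FPKM and 3.12, 2.31 and 2.65 FPKM, so that the groups overlapped. The log2 fold change of −0.060 (adjusted p = 0.794) had a 95% interval from −0.50 to 0.38, and without calf 3 the estimate was −0.071 (adjusted p = 0.730). With other scalings JAG2 was lower in bulls but under the size required for a call, at −0.78 after quantile normalization (adjusted p = 0.0172) and −0.53 with upper quartile scaling (adjusted p = 0.0460). Calf 3 was at 0.961 times the mean of the other calves, the nearest to 1 among the members. The ratio of JAG1 to JAG2 within a library does not depend on how libraries are scaled. It was 4.33, 2.92 and 2.06 in the calves and 0.702, 0.770 and 0.857 in the bulls, so JAG1 exceeded JAG2 in each calf and JAG2 exceeded JAG1 in each bull.

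DLL4 (ENSBTAG00000010361, chromosome 10, 36464520 to 36473693), a ligand of endothelial cells, was the weakest member. The calves were at 1.60, 0.930 and 1.91 FPKM and the bulls at 0.568, 0.298 and 0.556, and all bulls lay below all calves. With no filter beyond an FPKM above 0 in 1 library, its log2 fold change was −0.73 (adjusted p = 0.0526, limma), and it was not called, where 3.54% of genes were called lower in that fit. The groups lay apart in this direction in 6 of the 9 members, and in 14.2% of the 44657 genes above 0 in at least 1 library.

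Among the targets, HES1 and HEYL were lower in bulls and HEY1 was not called. HES1 (ENSBTAG00000000569, chromosome 1, 73362759 to 73365438), a transcriptional repressor and a classical readout of Notch signalling that other pathways can also induce, was at 8.19, 8.36 and 4.86 FPKM in the calves and at 2.38, 1.94 and 2.31 in the bulls. Calf 3 lay between the other calves and the bulls, and the groups did not overlap. HES1 was called lower in bulls by −1.31 ± 0.24 (SE) on the log2 scale (adjusted p = 0.00451), and by −1.53 without calf 3 (adjusted p = 0.000147).

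HEYL (ENSBTAG00000008688, chromosome 3, 106442589 to 106458224), a repressor of the HEY family known from vascular smooth muscle, was at 13.5, 15.2 and 5.79 FPKM in the calves and at 3.18, 2.72 and 2.45 in the bulls. Again calf 3 was lowest among the calves and still above every bull. HEYL was called lower in bulls at −1.63 ± 0.36 (SE, adjusted p = 0.00979), and at −2.03 without calf 3 (adjusted p = 5.90e-05), the largest fall of any member in that fit.

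HEY1 (ENSBTAG00000015717, chromosome 14, 42969172 to 42972066), a repressor of the same family known from arteries and bone, varied widely within both groups. The calves were at 1.65, 2.21 and 6.96 FPKM and the bulls at 1.19, 3.95 and 3.93, so bull 1 was the lowest of all 6 libraries and calf 3 the highest. The log2 fold change was −0.11 (95% interval −1.42 to 1.19, adjusted p = 0.870), and 0.37 without calf 3 (95% interval −0.58 to 1.32, adjusted p = 0.414). These intervals reach past a 2-fold change, so a change of that size in HEY1 could not be seen or excluded with these animals.

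**Figure D2:**
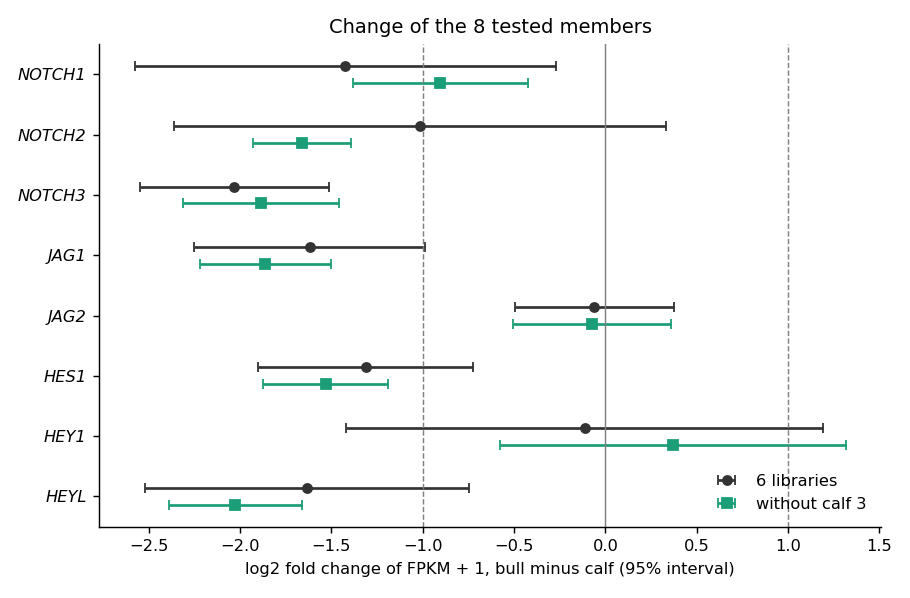
Log2 fold change of FPKM + 1 (x axis, bull minus calf) with its 95% interval from limma for the 8 tested members, with 6 libraries (circles) and without calf 3 (squares). The dashed lines mark the fold change required for a call. Without calf 3, the interval of NOTCH2 runs from −1.93 to −1.39 and that of HEYL from −2.39 to −1.66, whereas JAG2 and HEY1 span 0.

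The levels of the members fell into a clear order in calf 1 and calf 2. NOTCH2 led with a mean of 28.8 FPKM, followed by HEYL (14.4), JAG1 (10.2), HES1 (8.27), NOTCH3 (5.32), NOTCH1 (4.07), JAG2 (2.89), HEY1 (1.93) and DLL4 (1.26), and no neighbours in this order overlapped. With calf 3 included, all neighbours in the order of calf means overlapped except JAG2 and DLL4. In bulls NOTCH2 (8.42 ± 0.537, SD, n = 3) stood apart from the rest. HEY1, HEYL, JAG2, HES1, JAG1 and NOTCH1 followed with means from 3.02 down to 1.74 FPKM, each overlapping the next, and NOTCH3 (0.721) and DLL4 (0.474) were lowest and overlapped each other.

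The make-up of each role was described by the share of each member in the summed FPKM of its role. The 3 receptors together summed to 38.2, 38.2 and 28.2 FPKM in the calves and to 10.6, 11.1 and 10.9 in the bulls. NOTCH2 held 75.7% and 75.2% of this sum in calf 1 and calf 2, 81.4%, 79.4% and 71.5% in the bulls, and 23.8% in calf 3, where NOTCH1 held 49.5%. These shares of NOTCH2 include the transcripts named as antisense that are described below. Such transcripts were 35.8%, 18.1% and 15.1% of NOTCH2 in the bulls and 0 in calf 1 and calf 2, so they raise its share in the bulls. The share of NOTCH3 lay between 13.6% and 26.7% in calves and between 3.92% and 8.74% in bulls. Among ligands, JAG2 made up 16.7%, 23.8% and 26.7% in the calves and 53.1%, 52.7% and 48.4% in the bulls. The share of HEY1 among the targets was 7.05% and 8.56% in calf 1 and calf 2 and 17.6%, 45.9% and 45.2% in the bulls, and the 39.5% of calf 3 lay within the range of the bulls.

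**Figure D3:**
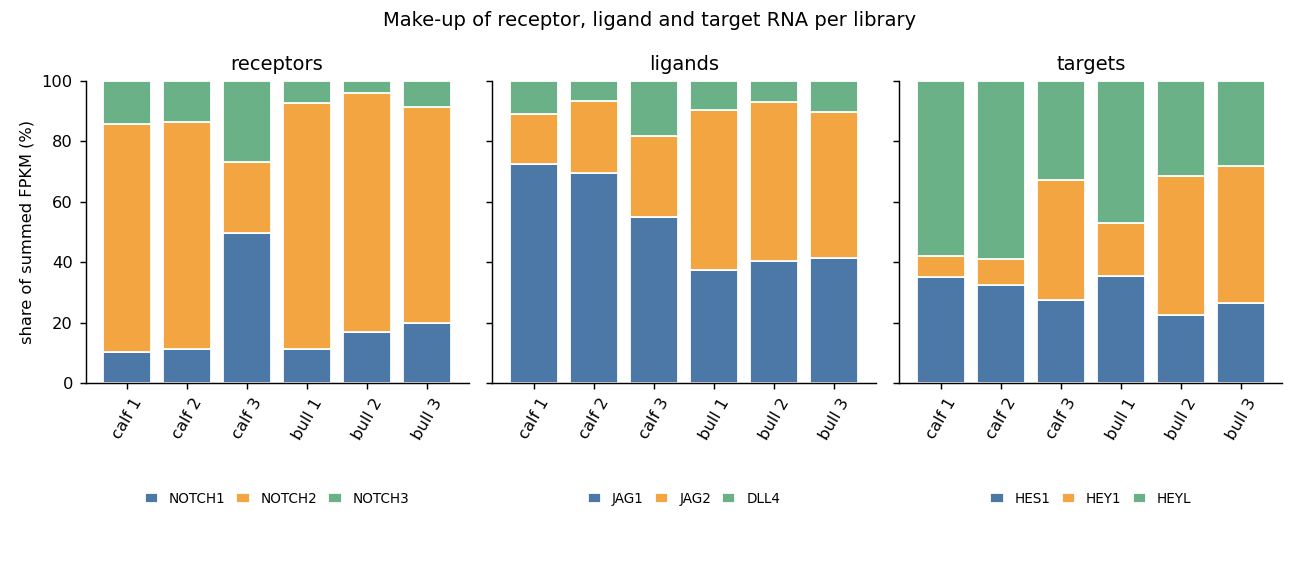
Share (y axis, %) of each member in the summed FPKM of the 3 receptors, the 3 ligands and the 3 targets, for each library. The share of NOTCH2 includes its antisense-named transcripts. JAG2 holds 16.7% to 26.7% of ligand FPKM in the calves and 48.4% to 53.1% in the bulls, and calf 3 stands apart by its NOTCH1 share of 49.5%.

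The table of transcripts lists 23 transcripts for the members, 11 of which passed the filter on FPKM. Of these, 5 were called lower in bulls and 0 higher, where 9.37% of the 23212 transcripts tested were called lower and 34.8% higher. Without calf 3, 7 were called lower and 0 higher, against 13.1% and 36.1%. NOTCH3-201, HEYL-201 and TCONS_00264271, an assembled transcript of HEYL, passed the filter through the calves alone. They therefore had to differ between the groups to be tested. NOTCH3-201 was among the calls in both fits and HEYL-201 among those without calf 3. HES1, HEY1 and NOTCH3 have a single transcript each, with the values of the gene. JAG1-201 fell with its gene (−1.59, adjusted p = 0.00277, and −1.82 without calf 3, adjusted p = 0.000321). JAG2-203 was not called, at 0.042 (adjusted p = 0.888) and −0.075 without calf 3 (adjusted p = 0.762). The HEYL transcript HEYL-202 made up 76.3% and 77.6% of HEYL in calf 1 and calf 2 and 60.7% to 74.0% in the bulls, and was called lower (−1.54, adjusted p = 0.0317, and −2.07 without calf 3, adjusted p = 0.000177). In calf 3 its share was 52.9%, below every bull. NOTCH1-202 was listed at 0 in 4 libraries and was at 2.44 FPKM in calf 3 and 0.328 in bull 2.

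The FPKM of NOTCH2 contained a part that came from transcripts named as antisense. The transcripts NOTCH2-AS1, NOTCH2-AS2 and NOTCH2-AS3 lie between 23284462 and 23307523 on chromosome 3, inside the span of NOTCH2, and carry its gene identifier. Together they were listed at 0 in calf 1 and calf 2, at 0.0220 FPKM in calf 3, and at 3.08, 1.60 and 1.18 in the bulls. This was 35.8%, 18.1% and 15.1% of the summed NOTCH2 FPKM in the bulls. The other 4 transcripts summed to 28.9, 28.7 and 6.69 FPKM in the calves and to 5.52, 7.24 and 6.63 in the bulls. When transcripts with such names were left out for all genes, an alternative chosen after the values were seen, the log2 fold change of NOTCH2 was −1.35 (adjusted p = 0.0837, limma), and −2.004 without calf 3 (adjusted p = 4.54e-05). NOTCH2-202 was at 17.9 and 20.8 FPKM in calf 1 and calf 2 and at 4.21, 3.81 and 3.47 in the bulls, and was called lower without calf 3 (−2.07, adjusted p = 0.000164) but not with it (−1.40, adjusted p = 0.0849).

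**Figure D4:**
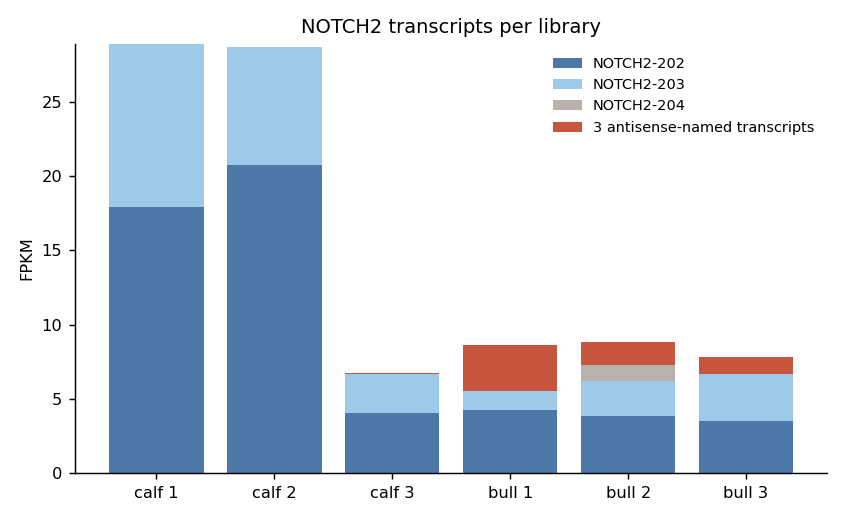
Stacked FPKM (y axis) of the NOTCH2 transcripts in each library. The 3 antisense-named transcripts reach 1.18 to 3.08 FPKM in the bulls and at most 0.0220 in the calves, and NOTCH2-202 and NOTCH2-203 are highest in calf 1 and calf 2.

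Of 65 other genes of the pathway, 59 were tested, 9 were called higher and 10 lower in bulls, and 40 were not called. NRARP and DLK2 passed the filter through the 3 bulls alone and MAML2, DTX4 and DLL1 through the 3 calves alone, so these 5 had to differ between the groups to be tested. The shares of all genes tested were 35.7% and 9.61%. Without calf 3, 11 were called higher and 13 lower, against 37.9% and 13.6%. The median log2 fold change of the 59 genes was −0.41. Quantile normalization changed this balance, with 4 called higher and 25 lower, where 21.1% and 25.1% of all genes were.

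Among the other receptors and ligands, 2 of 5 tested were called higher and 0 lower, against 35.7% and 9.61% of all genes tested. DLL3, a Delta-like protein that mainly opposes Notch signalling, was at 0.728, 0.876 and 1.39 FPKM in the calves and 3.99, 4.604 and 4.71 in the bulls (log2 fold change 1.45, adjusted p = 0.000925). DLK2, a Delta-like membrane protein, had a log2 fold change of 1.64 (adjusted p = 0.00662), and neither DLL3 nor DLK2 was called after quantile normalization. NOTCH4, the receptor of endothelial cells, was at 0.812, 0.425 and 2.50 FPKM in the calves and 2.42, 2.38 and 2.79 in the bulls. It was called higher in bulls without calf 3 (1.13, adjusted p = 0.000962, against 0.76, adjusted p = 0.108, with all libraries), and its direction turned after quantile normalization (−0.09). DLL1 was at 1.39, 1.66 and 9.20 FPKM in the calves and at 0.318 to 0.350 in the bulls, and was not called (−1.59, adjusted p = 0.0539, and −0.91 without calf 3, adjusted p = 0.000653), but was called lower after quantile normalization (−2.09, adjusted p = 0.0166), with upper quartile scaling (−1.89, adjusted p = 0.0306) and with a pseudocount of 0.1 (−2.73, adjusted p = 0.0206). DLK1 and DNER are named because of their values. DLK1, known from fetal Leydig cells, was at 22.2 and 13.0 FPKM in calf 1 and calf 2, 0.681 in calf 3 and 0.278 to 0.540 in the bulls, and was not tested because it passed 1 FPKM in 2 libraries. DNER, a Notch-binding protein of neurons, was at 86.7 FPKM in calf 3, 0.240 and 0.341 in calf 1 and calf 2, and 1.51 to 2.69 in the bulls. It was not called with all libraries (−0.77, adjusted p = 0.718) and was called higher in bulls when calf 3 was left out (1.26, adjusted p = 0.00133), but not when quantile normalization was used as well (0.22, adjusted p = 0.329).

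Among the other targets, 2 of 5 tested were called higher and 1 lower, against 35.7% and 9.61% of all genes tested. NRARP, a target that feeds back to limit Notch signalling, was at 0.209, 0.202 and 0.427 FPKM in the calves and at 22.1, 22.0 and 25.6 in the bulls. Its difference of 4.24 ± 0.17 (SE) on the log2 scale (adjusted p = 1.25e-05, and 4.33 without calf 3) was the largest of the pathway genes tested, opposite in sign to HES1 and HEYL. The entry of NRARP (chromosome 11, 106323969 to 106329567) overlaps that of EXD3, which was at 2.30 to 3.43 FPKM in the calves and 1.14 to 1.28 in the bulls. HES2 was called higher (1.79, adjusted p = 0.000690). HEY2, a repressor of the family of HEY1 and HEYL, was at 3.55, 3.07 and 3.17 FPKM in the calves and 0.722, 1.118 and 0.986 in the bulls, and was called lower (−1.14, adjusted p = 0.00111), with calf 3 between the other two calves. HES5, a target known from neural progenitors, was highest in calf 3 (1.90 FPKM against 0.164 and 0.228 in the other calves and at most 0.0724 in bulls) and was not tested.

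In the nuclear complex, 0 of 9 tested genes were called higher and 2 lower, against 35.7% and 9.61% of all genes tested. RBPJ, the DNA-binding partner of the cleaved receptor, was at 17.0, 14.4 and 29.6 FPKM in the calves and 12.8, 12.6 and 11.9 in the bulls, and was not called (−0.60, adjusted p = 0.111), but was called lower after quantile normalization (−1.22, adjusted p = 0.0108) and with upper quartile scaling (−1.20, adjusted p = 0.00975). Without calf 3, the highest calf, RBPJ was at −0.31 (adjusted p = 0.0517). With quantile normalization in addition it was at −0.95 (adjusted p = 0.00122), and neither was a call. The coactivator MAML2 was called lower (−1.22, adjusted p = 0.000467). The acetyltransferase CREBBP was called lower at the threshold (−1.001, adjusted p = 0.00244) and was not called without calf 3 (−0.93). The related EP300, named because of its values, was at 7.77, 9.22 and 13.7 FPKM in the calves and 21.3, 20.5 and 20.3 in the bulls (0.98, adjusted p = 0.0107). Antisense-named transcripts made up 53.3% of its FPKM in bulls and 7.71% in calves, and without such transcripts its log2 fold change was 0.07 (adjusted p = 0.830). Among 13 corepressor genes, 1 was called higher and 1 lower, with the same shares of all genes beside them. CTBP2 was lower in bulls (−1.76, adjusted p = 0.000951), and HDAC1 was higher (1.20, adjusted p = 0.0185) but under the fold change required without calf 3 (0.86). HDAC1 also lost its call after quantile normalization (0.44, adjusted p = 0.318), with upper quartile scaling (0.58, adjusted p = 0.182) and without bull 1, bull 2 or bull 3 (1.16 to 1.26, adjusted p 0.0534 to 0.0691).

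The fringe enzymes, which add sugars to the receptors and so alter which ligands they answer to, did not all go the same way. LFNG fell from 9.17, 13.2 and 15.3 FPKM in the calves to 2.32, 1.39 and 1.49 in the bulls (−2.30 ± 0.25 on the log2 scale, SE, adjusted p = 0.000526), whereas RFNG rose from 15.7, 13.9 and 12.1 to 46.2, 37.95 and 39.0 (1.499, adjusted p = 0.000525). RFNG was not called after quantile normalization (0.80) or with upper quartile scaling (0.89). MFNG, named because of its values, was at 3.91, 3.25 and 2.31 FPKM in the calves and 1.17, 0.770 and 1.301 in the bulls, under the size required with all libraries (−0.99, adjusted p = 0.00806) and called lower without calf 3 (−1.15, adjusted p = 0.00125) and after quantile normalization (−1.79, adjusted p = 0.000427). POGLUT1, a glucosyltransferase of the receptors, was called lower (−1.60, adjusted p = 0.00186). Of the 9 proteases and secretase subunits, 2 were called higher and 1 lower, against 35.7% and 9.61% of all genes tested. The gamma-secretase subunit NCSTN was called lower (−1.33, adjusted p = 0.00938), and the subunits APH1B (2.06, adjusted p = 0.000200) and PSENEN (1.09, adjusted p = 0.00636) were called higher. PSENEN was under the fold change required without calf 3 (0.89). It also lost its call after quantile normalization (0.30, adjusted p = 0.301) and with upper quartile scaling (0.47, adjusted p = 0.128).

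Of the 13 genes of endocytosis and ubiquitin transfer, 1 was called higher and 3 lower, against 35.7% and 9.61% of all genes tested. NEURL1, a ubiquitin ligase of Notch ligands, was at 4.65, 6.20 and 7.33 FPKM in the calves and 38.6, 30.7 and 35.8 in the bulls (2.36, adjusted p = 0.000180). Antisense-named transcripts made up 38.4% of it in bulls, and without them it was still called (1.88, adjusted p = 0.000435). The Deltex genes DTX4 (−1.96, adjusted p = 0.00157) and DTX3 (−1.48, adjusted p = 0.000596) were called lower.

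**Figure D5:**
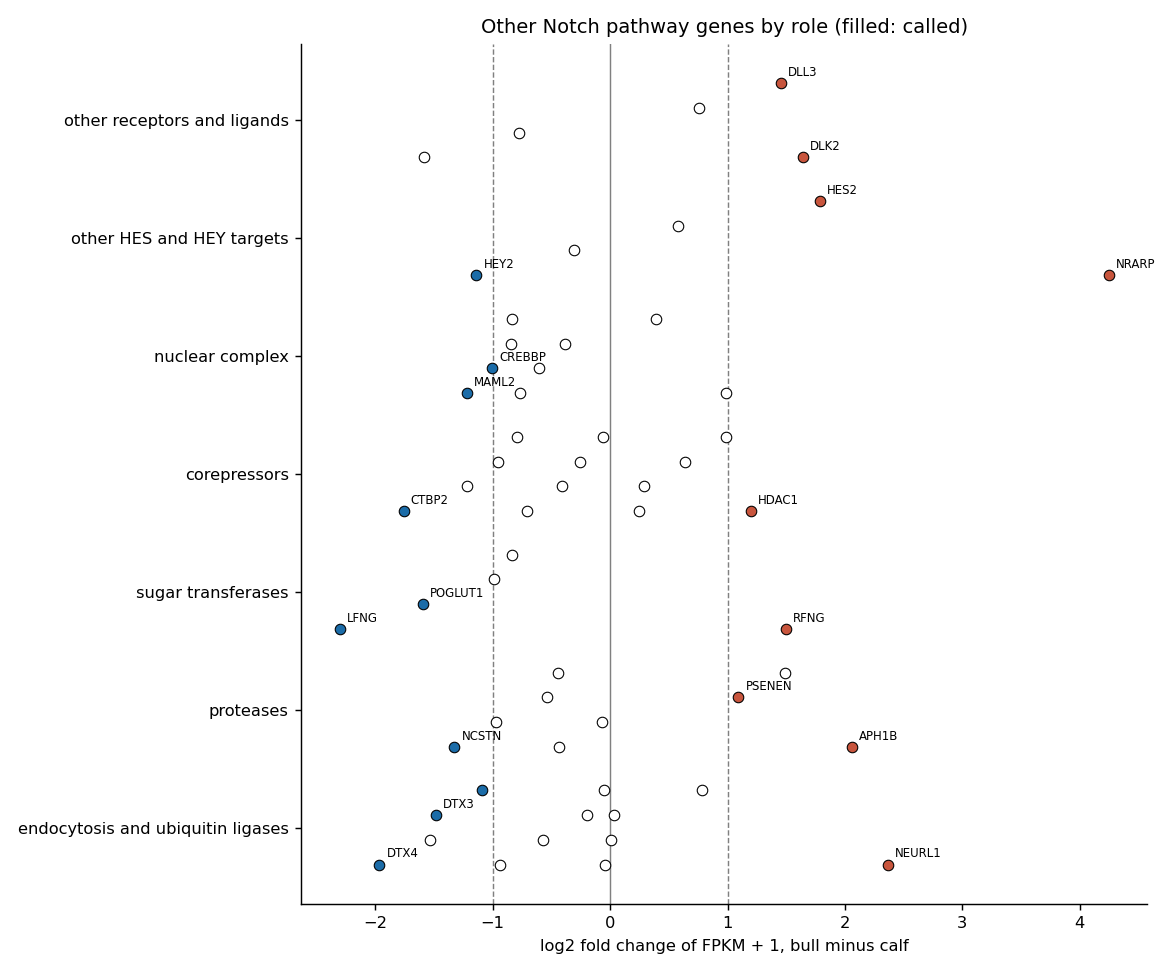
Log2 fold change of FPKM + 1 (x axis, bull minus calf) of the 59 tested genes of the pathway that are not members, by role (y axis, points spread vertically within a role). Filled points passed the test, in red where higher and in blue where lower in bulls, and the dashed lines mark the fold change required. NRARP at 4.24 is the farthest point on the side higher in bulls and LFNG at −2.30 on the side lower in bulls.

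The genes with the most similar pattern were sought for each member among 13310 tested genes with a symbol, by the root mean square difference of log2(FPKM + 1), centred over the 6 libraries. Among the members, JAG1, HES1 and HEYL were nearest to each other. Their differences were 0.161 (HES1 and JAG1), 0.200 (HEYL and JAG1) and 0.254 (HEYL and HES1) on the log2 scale. Genes outside the members were closer still to each of them. NOTCH2 was nearest to HEYL among the members (0.411) and NOTCH3 to JAG1 (0.444). Outside the members, the 2 nearest genes were CRISPLD1 and MYADM for JAG1 (0.0579 and 0.0679), UQCC3 and HSPE1 for HES1 (0.0641 and 0.0796), and LRRFIP1 and TRIM56 for HEYL (0.0903 and 0.103). They were NUDT14 and RPL13A for NOTCH2 (0.0751 and 0.0811), LDHB and ANXA6 for NOTCH3 (0.0894 and 0.0948), and ECHDC1 and PPP3CB for NOTCH1 (0.09997 and 0.106). For JAG2 they were MARCH5 and DLST (0.0584 and 0.0596), and for DLL4 VPS29 and XXYLT1 (0.0938 and 0.0952). HEY1 had no gene as close, its nearest being FGF14 (0.188) and ZNF483 (0.241). With 6 libraries these are descriptions of shared profiles.

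Markers of several cell types were compared between the groups beside the members. The counts of calls stand against 35.7% of all genes tested called higher and 9.61% called lower. Without calf 3 these shares were 37.9% and 13.6%. The 13 endothelial genes summed to 66.2, 51.4 and 121.6 FPKM in the calves and to 25.4, 27.0 and 29.9 in the bulls. A large part of the calf sums came from CLDN5, at 24.0, 31.9 and 54.7 FPKM in the calves and 4.601, 3.96 and 3.91 in the bulls. The sums therefore do not stand for the list as a whole. Every bull lay below calf 1 and calf 2 in 5 of the 13 genes and above both in 2. Over all genes tested, every bull lay below all calves in 21.3% and above all calves in 46.1%. The shares against calf 1 and calf 2 alone, a separation that is easier to meet, were not computed. Of 11 tested, 3 were called lower and 0 higher (2 and 0 without calf 3). The 11 genes of pericytes and smooth muscle summed to 96.4, 96.5 and 117.5 FPKM in the calves and to 89.4, 88.6 and 80.6 in the bulls, with 2 of 11 called higher and 3 lower (2 and 4 without calf 3). In this list PDGFRB was at 24.5, 22.2 and 7.31 FPKM in the calves and 2.27 to 2.84 in the bulls, whereas ACTA2 was at 5.64 to 7.81 in the calves and 22.3 to 29.6 in the bulls. The 9 Sertoli cell genes, 1 of which is also in the oligodendrocyte list, summed to 2821, 2712 and 866.8 FPKM in the calves and to 442.6 to 470.8 in the bulls, and 1 of 9 was called lower. Without calf 3, 8 of the 9 were called lower and 1 higher. The 7 Leydig cell genes (9 entries) summed to 1407 and 1143 FPKM in calf 1 and calf 2 and to 1484 to 2755 in the bulls, with 1 entry called higher. INSL3 made up most of these sums, at 1349 and 1041 FPKM in calf 1 and calf 2 and 1403 to 2262 in the bulls. The 8 macrophage genes summed to 83.3 to 225.0 FPKM in the calves and to 160.4 to 231.3 in the bulls, with 2 of 7 called higher and 2 lower (2 and 4 without calf 3). All 9 spermatocyte genes and all 9 spermatid genes tested were called higher (8 and 9 without calf 3), and the 10 spermatid genes summed to 2.03 to 4.11 FPKM in the calves and to 13753 to 15965 in the bulls. PIWIL1, SPO11 and every tested spermatid gene except SPACA1 passed the filter on FPKM through the bulls alone. SOX17 of the endothelial list and CSPG4 of the pericyte list passed it through the calves alone. All these genes had to differ between the groups to be tested, so their calls add little. For the spermatogonial list, 2 of 8 tested were called higher and 1 lower (2 and 2 without calf 3). The part of these shifts in the values of the members was not tested.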

How the data were processed

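The deposited tables, of genes and of transcripts, give an FPKM value for each of the 6 libraries and no counts. According to the methods, low-quality and ribosomal reads (Bowtie2) were removed, the rest were mapped with TopHat2 and transcripts were assembled with StringTie. Which tool made the FPKM is not given in the sources used here. The methods name the assembly UMD, but the table uses scaffold names of an ARS-UCD assembly, and all 9 members overlapped the RefSeq locus of the same symbol on ARS-UCD 2.0. Positions are those of the table.

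Values were transformed to log2(FPKM + 1). Features that reached an FPKM of 1 in 3 or more libraries were tested with limma 3.58.1 (mean-variance trend, two-sided, R 4.3.3), with Benjamini-Hochberg adjustment over all features. Groups came from the sample titles. The fit was tested on simulated data, with 200 genes given a log2 fold change of 2 in size. Of these, 119 (59.5%) were called, along with 9 unchanged genes, so a change of that size can be missed. The spread between animals is the only error used, since FPKM carry no depth. Figures were drawn with matplotlib 3.10.9.

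The members and lists were chosen with earlier results of these data known. Named were all members, NOTCH4, DLL1, HEY2, HES5, RBPJ and LFNG, up to 3 called genes per role with the largest change, the 2 nearest genes per member, and up to 3 marker genes per list. DLK1, DNER, EP300 and MFNG were added after their values were seen. The values of 1 further gene are not reported here. Alternatives covered pseudocount, filters, scaling, model, a replicate block and leaving out each library. An alternative without antisense-named transcripts was chosen after seeing the data. No promoter or protein sequences were used here.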

Additional observations from a re-analysis of the deposited data

How the results depend on the processing

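JAG1, HES1 and HEYL kept their direction and their call under all 19 alternatives, and NOTCH3 under the 18 that could test it. The filter of an FPKM of at least 1 in all 6 libraries left NOTCH3 out, as every bull was below 1. The number of members called lower in bulls lay between 4 and 6, and 0 were called higher under any alternative. The share of all genes called lower moved as well. The 6 came with quantile normalization without calf 3, where 5275 of 18115 genes were called lower. With total FPKM scaling 4 members were called lower, where 1055 of 18115 genes were. NOTCH1 lost its call under 9 of 19 alternatives, its log2 fold change ranging from −2.25 to −0.90, and NOTCH2 gained one under 4 of 19 (−2.35 to −0.69), each of which left out calf 3 or gave libraries unequal weights. JAG2 turned sign with total FPKM scaling (0.085), without calf 2 (0.028) and without bull 2 (0.016), the lowest value without 1 library being −0.14 (without bull 1), and moved to −0.78 after quantile normalization and −0.53 with upper quartile scaling. HEY1 turned with array weights (0.39), without calf 3 (0.37, also when antisense-named transcripts were left out) and without bull 1 (0.28), the lowest value without 1 library being −0.42 (without calf 1), and was at −0.80 after quantile normalization. None of these was called. NOTCH4 turned after quantile normalization (−0.094). DNER turned with array weights (1.14), without calf 3 (1.26, and 0.22 together with quantile normalization), the lowest value without 1 library being −1.82 (without calf 1). JAG2-203 turned after quantile normalization (−0.58, and −0.65 together with leaving out calf 3), with upper quartile scaling (−0.42), with array weights (−0.036), without calf 3 (−0.075) and without bull 1 (−0.048), the highest value without 1 library being 0.19 (without calf 2).

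Of the other pathway genes, 25 were called lower after quantile normalization and 25 with upper quartile scaling, 26 after quantile normalization without calf 3 and 16 with a pseudocount of 0.1, against 10. Called higher were 4 after quantile normalization, with or without calf 3, and 5 with an FPKM of at least 1 in all 6 libraries, against 9. Member transcripts called lower numbered 9 after quantile normalization, with or without calf 3, 8 with upper quartile scaling and 3 without the filter, where 1 (NOTCH2-AS3) was called higher, against 5 and 0. Leaving out 1 library gave 3 to 7 (3 without bull 2 and without bull 3). The calls over all 23212 transcripts tested moved as well. Called lower were 5884 after quantile normalization, 6655 without calf 3 in addition and 4603 with upper quartile scaling, against 2176. Without the filter, 1734 of 103186 transcripts were called lower and 8638 higher. Over all genes, 3827 were called higher and 4538 lower after quantile normalization, 4062 and 5275 without calf 3 in addition, and 2220 and 1138 with an FPKM of at least 1 in all 6 libraries. Upper quartile scaling gave 5041 higher and 3683 lower, and a pseudocount of 0.1 gave 6702 higher and 2207 lower. Total FPKM scaling gave 1055 lower, against 6474 higher and 1741 lower, each of 18115 genes tested. Leaving out 1 library gave 6034 to 6859 higher and 1218 to 2466 lower, the latter without calf 3. Of all calls 78.8% were higher, and 45.8% after quantile normalization and 57.8% with upper quartile scaling. The cause of these shifts was not tested. With the replicate block, 5 members were called lower, as without it, and 6437 genes were called higher and 1691 lower. The numbers carry no shared animal, the correlations of same-numbered deviations from the group means were 0.028, 0.025 and 0.034, and every library correlated best with its own number.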
